A study of Mus musculus with 8 samples.

Results

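Stretches of the mouse genome in which P300 peaks lie unusually close together are described here, at chr4:146000001-148000000 and chr13:65000001-67000000 (GRCm39). Both were chosen by the number of P300 peaks, since each of their 1 Mb steps held at least 10 in every P300 library, so the crowding itself is a description and carries no test. All peaks of the 8 libraries inside these 2 windows, merged where they shared at least 1 bp, gave 255 regions of the 23459 merged regions of the whole series. The chromosome 4 window held 142 of them and the chromosome 13 window 113, with widths of 120 to 1559 bp and a median of 193 bp. The 2 Mb on each side of each window, with 167 merged regions in all, served as flanks.

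Binding of P300 and of YY1 was mapped by CUT&RUN, in which an antibody tethers a nuclease that cuts out the DNA around its target, in nuclei of E14TG2a cells, an established line of mouse embryonic stem cells kept in medium with LIF and the kinase inhibitors PD0325901 and CHIR99021. The 2 genotypes were Alkbh5 del-cIDR (ΔcIDR below), a deletion within the gene for the RNA demethylase ALKBH5, and WT cells of the same line. Each antibody and genotype had 2 libraries, and the labels do not say how many clones or cultures these came from. Whether the labelled cell type or the Alkbh5 deletion shows in these data was not checked, since peak lists carry neither expression nor sequence and no annotation on GRCm39 was used.

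P300 is a histone acetyltransferase that acts as a coactivator: it has no DNA-binding specificity of its own, is brought in by transcription factors and acetylates histones at active enhancers and promoters. YY1 is a zinc-finger transcription factor that binds DNA directly, often at promoters, and can bridge promoters and enhancers. Mouse chromosomes 4 and 13 are known to carry large clusters of tandemly repeated zinc-finger genes. Whether the windows overlap such clusters was not determined here.

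The windows held 81 and 105 P300 peaks in ΔcIDR replicates 1 and 2, against 77 and 120 in WT replicates 1 and 2. The means were 93 ± 17.0 in ΔcIDR libraries and 98.5 ± 30.4 in WT libraries (SD, n = 2 each). The ΔcIDR counts fell between the WT counts, and the log2 difference of ΔcIDR minus WT was −0.060 with p = 1 when the genotype labels were permuted (exact, two-sided, 6 assignments), which cannot give a p below 0.33. The choice of the windows used these same counts and asked for P300 peaks in every library of both genotypes. Likeness of the genotypes follows in part from that choice, so the test cannot show it. This limits the P300 count comparisons below as well. On chromosome 4 there were 50 and 61 P300 peaks in ΔcIDR libraries, against 48 and 70 in WT libraries. The chromosome 13 window held 31 and 44 in ΔcIDR libraries and 29 and 50 in WT libraries. In each window the genotypes overlapped, with WT replicate 1 lowest and WT replicate 2 highest.

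The flanks, which cover 8 Mb against the 4 Mb of the windows, held 15 and 23 P300 peaks in ΔcIDR libraries and 17 and 27 in WT libraries. This put between 19.25 and 30 P300 peaks in each Mb of the windows per library, against 1.88 to 3.38 in each Mb of the flanks. Windows held 5.4 and 4.57 times as many P300 peaks as the flanks in ΔcIDR libraries, and 4.53 and 4.44 times as many in WT libraries. The ratios of the genotypes did not overlap, but only narrowly, with a log2 difference of 0.15 (p = 0.33, exact, two-sided, the smallest p possible), which turned to −0.13 on chromosome 4 alone and to −0.40 with P300 lists of equal length.

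YY1 counts in the same windows did not overlap between the genotypes. YY1 peaks numbered 58 and 65 in ΔcIDR libraries, against 34 and 40 in WT libraries, with means of 61.5 ± 4.95 in ΔcIDR and 37 ± 4.24 in WT (SD, n = 2 each). Both ΔcIDR libraries lay above both WT libraries, 1.66-fold on average, with p = 0.33 (exact, two-sided), the smallest p that 6 assignments allow. On chromosome 4 the counts were 30 and 31 in ΔcIDR libraries and 17 and 22 in WT libraries, and on chromosome 13 they were 28 and 34 in ΔcIDR libraries and 17 and 18 in WT libraries.

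The whole YY1 lists differed more than the windows did. They held 9178 and 15531 peaks in ΔcIDR libraries and 3527 and 5842 in WT libraries, a 2.63-fold difference, and the flanks held 52 and 93 YY1 peaks in ΔcIDR libraries and 19 and 33 in WT libraries, 2.78-fold. Relative to the flanks, the windows held 1.12 and 0.699 times as many YY1 peaks in ΔcIDR libraries and 1.79 and 1.21 times as many in WT libraries. YY1 peaks were denser in the windows than in the flanks in all 4 YY1 libraries, with 14.5 and 16.25 per Mb in ΔcIDR libraries and 8.5 and 10 per Mb in WT libraries in the windows, against 6.5 and 11.6 in ΔcIDR libraries and 2.38 and 4.12 in WT libraries in the flanks, which are longer. The ratio was lower in both ΔcIDR libraries (log2 difference −0.74, p = 0.33, exact, two-sided, the smallest p possible), and −0.40 without ΔcIDR replicate 2 and −0.46 without WT replicate 1 (p = 0.67, exact, for both). When each YY1 list was shortened to the 3527 peaks with the highest −log10 q, the windows held 23 and 26 YY1 peaks in ΔcIDR, against 34 and 32 in WT libraries. The direction of the YY1 difference thus turned round with list length, to a log2 difference of −0.43.

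**Figure D1:**
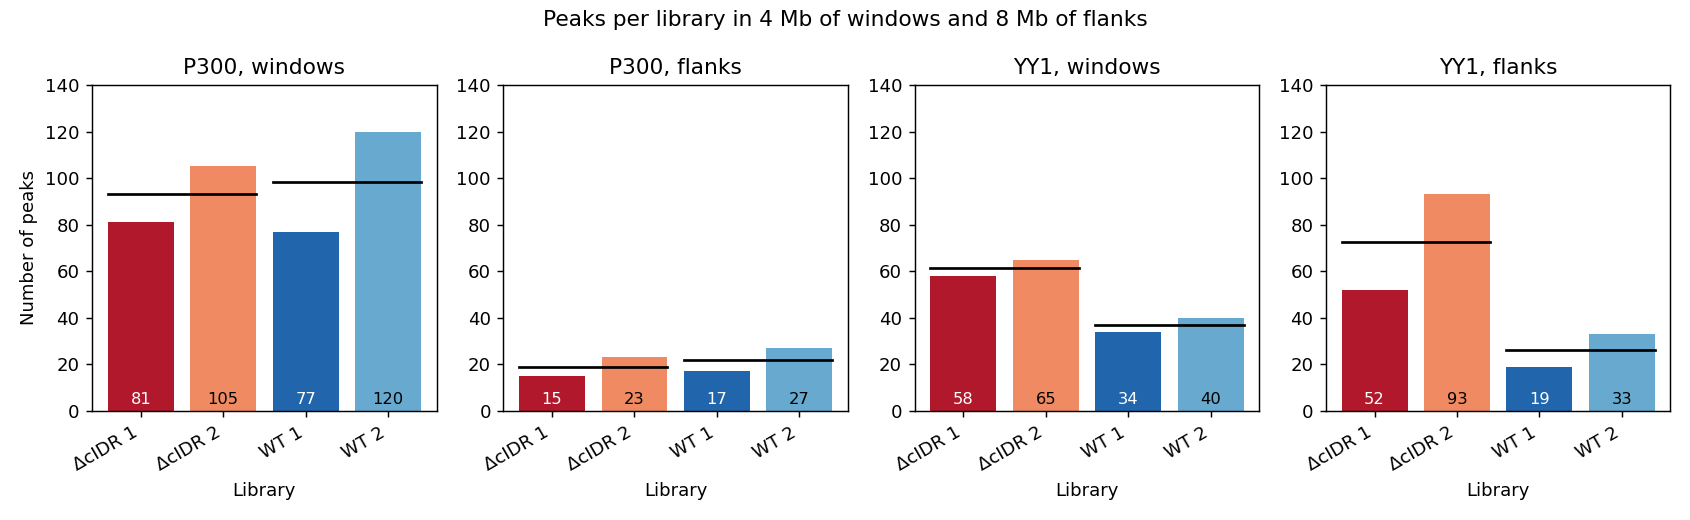
Number of peaks per library (bars, with the count printed at the foot) in the 4 Mb of the windows and the 8 Mb of their flanks, for P300 and YY1. Red bars are ΔcIDR and blue bars WT libraries, and black lines mark the mean of each genotype: P300 counts of the genotypes overlap in the windows, while the YY1 counts of 58 and 65 in ΔcIDR lie above 34 and 40 in WT.

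As a share of its list, P300 in the windows reached 6.05% (95% Wilson interval 4.90 to 7.46) and 8.05% (6.70 to 9.66) in ΔcIDR libraries, against 5.25% (4.22 to 6.52) and 4.83% (4.05 to 5.74) in WT libraries. The P300 lists held 1338 and 1304 peaks in ΔcIDR, against 1466 and 2487 in WT libraries. The higher share in ΔcIDR (log2 difference 0.47, p = 0.33, exact, two-sided) therefore stood beside window counts that overlapped and lists that were shorter. With lists of equal length the P300 shares were 6.21% and 8.05% in ΔcIDR, against 5.60% and 6.90% in WT libraries, which overlap (log2 difference 0.19, p = 0.67, exact, two-sided), and without ΔcIDR replicate 2 the difference was 0.27. For YY1 the shares were 0.632% and 0.419% in ΔcIDR libraries and 0.964% and 0.685% in WT libraries, lower in both ΔcIDR libraries (log2 difference −0.66, p = 0.33, exact, two-sided), with −0.36 without ΔcIDR replicate 2 and −0.41 without WT replicate 1. The log2 genotype difference in window counts of P300 minus that of YY1 was −0.80, with p = 0.17 over 36 exact assignments, which cannot give a p below 0.056. With lists of equal length it turned to 0.62 (p = 0.11, exact). The P300 counts in this contrast are those by which the windows were chosen, so it cannot show whether the antibodies differ.

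P300 counts per Mb were lower beyond both ends of each window. The windows were picked by counts per Mb, so these drops follow in part from that choice. The last 100 kb of the chromosome 4 window held no P300 peak except 1 in WT replicate 2. On chromosome 4 the counts of P300 peaks per Mb over the 4 P300 libraries were 1 to 6 from 144 to 145 Mb, 9 to 16 from 145 to 146 Mb, 25 to 34 from 146 to 147 Mb, 23 to 42 from 147 to 148 Mb and 0 to 3 from 148 to 149 Mb. The Mb before the chromosome 4 window came closest to the choice of at least 10 peaks in every library and missed it with as few as 9. On chromosome 13 they were 0 to 1 from 64 to 65 Mb, 10 to 18 from 65 to 66 Mb, 19 to 32 from 66 to 67 Mb and 0 to 2 from 67 to 68 Mb. The Mb from 65 to 66 passed only just, and its first P300 region started at 65499399, so the earlier part of that Mb held none.

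YY1 peaks followed this outline less closely. In the last Mb of the chromosome 4 window there were 18 and 17 YY1 peaks in ΔcIDR libraries and 13 and 8 in WT libraries. From 148 to 149 Mb, next to the window, there were 10 and 16 in ΔcIDR libraries and 3 and 6 in WT libraries. YY1 thus fell across that edge in every library, by little in ΔcIDR replicate 2. Within the windows, the 100 kb bin with most P300 peaks on chromosome 4 was chr4:146400001-146500000, with 6 to 11 per P300 library. The densest bin for P300 on chromosome 13 was chr13:66800001-66900000, with 6 to 8 per P300 library. That bin was also the densest for YY1, with 4 to 6 peaks per YY1 library, whereas on chromosome 4 YY1 was densest elsewhere, at chr4:147100001-147200000, with 2 to 4.

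**Figure D2:**
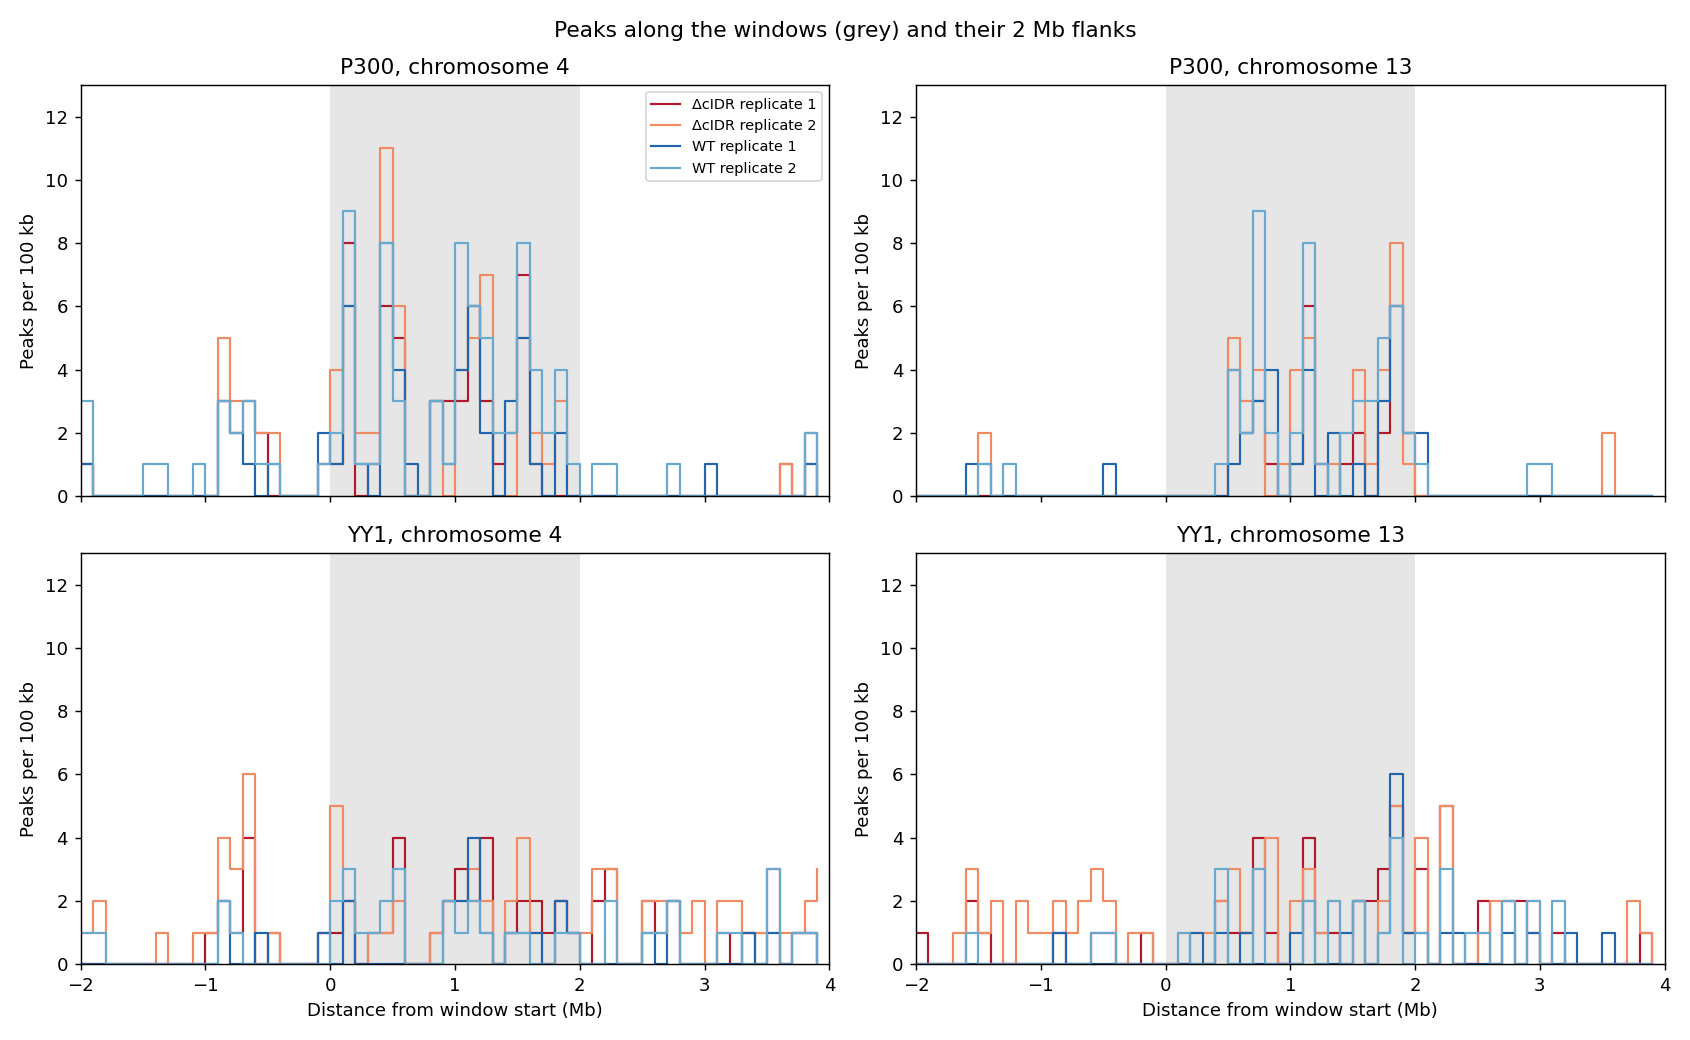
Peaks per 100 kb along the windows (grey) and the 2 Mb on each side, by distance from the window start in Mb, with 1 line per library (red shades ΔcIDR, blue shades WT). P300 peaks pile up inside the grey area in all 4 P300 libraries, with up to 11 per bin on chromosome 4, while YY1 peaks run on into the flanks.

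Of the 255 merged regions, 61 held both antibodies, 151 held P300 without YY1 and 43 held YY1 without P300. A single library accounted for 127 of them, 49.8%, against 64.0% of the regions of the whole series. At the other end, 7 regions were called in all 8 libraries, 2.75% (1.34 to 5.56), against a background of 0.341% of all merged regions. Of these 7, 6 lay on chromosome 13 and 1 on chromosome 4. The windows were picked for P300 calls in every library, so this higher share follows in part from that choice.

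For P300 alone the windows held 218 regions, 123 on chromosome 4 and 95 on chromosome 13. All 4 P300 libraries called 18 of these (8.26%), against a background of 6.36% of all P300 regions, 9 in each window. Regions called in both ΔcIDR and no WT library numbered 5 (2.29%), against 1.39% of all P300 regions, and those called in both WT and no ΔcIDR library numbered 7 (3.21%), against 4.11%. All of these shares had intervals that spanned the background. The genotype classes sat in different windows: of the 5 ΔcIDR-only regions 4 lay on chromosome 13, and of the 7 WT-only regions 6 lay on chromosome 4, counts too small to compare.

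YY1 had 105 regions in the windows, 56 on chromosome 4 and 49 on chromosome 13. All 4 YY1 libraries called 15 (14.3%), against 9.78% of all YY1 regions, with an interval of 8.85 to 22.2%. The ΔcIDR-only class held 8 (7.62%), near the 9.30% of all YY1 regions. The WT-only class held 2 (1.90%, 0.524 to 6.68), against 0.292%.

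Libraries of the same genotype shared no more P300 regions in the windows than libraries of different genotypes did. The 2 ΔcIDR libraries had 25.9% of their combined P300 regions in common and the 2 WT libraries 26.5%, while the pairs of 1 ΔcIDR and 1 WT library had 25.2% to 33.3%. For YY1 the ΔcIDR pair shared 38.2% and the WT pair 37.7%. Between the genotypes, ΔcIDR replicate 1 shared 29.6% and 34.7% with WT replicates 1 and 2, and ΔcIDR replicate 2 shared 26.9% and 38.7%. Only the last of these lay above the pairs of the same genotype. The pair with most in common crossed the genotypes for both antibodies, ΔcIDR replicate 2 and WT replicate 2. These libraries also held the most window regions of their genotype, 105 and 119 for P300 and 65 and 39 for YY1.

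The best-ranked P300 region in the chromosome 4 window was chr4:147501863-147502040, with no YY1 peak in any library. Its folds, the authors' ratio of reads at the summit to the local background, were 11.6 and 12.0 in ΔcIDR libraries and 13.3 and 12.4 in WT libraries, from 25 and 26 reads in ΔcIDR libraries and 25 and 24 in WT libraries. The 4 libraries were close to each other, with both WT folds above both ΔcIDR folds but no such order in the reads.

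Next in rank came chr4:146176537-146176853, the only region of the chromosome 4 window called in all 8 libraries. Its P300 folds were 10.1 and 9.95 in ΔcIDR, against 13.4 and 8.11 in WT libraries. Its YY1 folds were 11.6 and 10.6 in ΔcIDR, against 7.63 and 10.5 in WT libraries. The P300 folds of the genotypes overlapped, while both YY1 folds in ΔcIDR lay above both in WT, by little for WT replicate 2. The YY1 reads overlapped, with 18 and 13 in ΔcIDR libraries and 13 and 18 in WT libraries, over a local background of 0.640 and 0.324 reads in ΔcIDR libraries and 0.835 and 0.816 in WT libraries. A neighbour at lower coordinates, chr4:146172711-146173079, was called in all 4 P300 libraries, with 9.51 and 8.46 in ΔcIDR, against 6.19 and 8.46 in WT libraries, and in 3 of the YY1 libraries.

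P300 without YY1 was also found in all 4 P300 libraries at chr4:146496447-146496610, in the densest bin of that window, with folds of 9.37 and 7.41 in ΔcIDR, against 6.47 and 10.8 in WT libraries. At chr4:146803218-146803460, the P300 folds were 7.99 and 6.47 in ΔcIDR, against 7.88 and 6.77 in WT libraries. Genotypes overlapped at both, and neither had a YY1 peak.

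On chromosome 13 the best-ranked P300 region was chr13:66138853-66139254, called in all 8 libraries. Its P300 folds were 11.8 and 14.7 in ΔcIDR libraries and 11.0 and 11.0 in WT libraries, and its YY1 folds were 14.3 and 15.7 in ΔcIDR libraries and 9.84 and 10.8 in WT libraries. Both antibodies had higher folds in both ΔcIDR libraries there, as did the YY1 reads (33 and 26 in ΔcIDR, against 19 and 22 in WT), while the P300 reads overlapped (26 and 32 in ΔcIDR, against 23 and 27 in WT). The P300 summits lay at 66139105 and 66138937 in ΔcIDR libraries and at 66138916 and 66139103 in WT libraries. The P300 folds thus do not all belong to the same summit position.

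The highest YY1 values of either window were at chr13:66773918-66774851, where YY1 folds were 18.0 and 17.5 in ΔcIDR libraries and 11.1 and 13.8 in WT libraries, from 45 and 37 reads in ΔcIDR libraries and 26 and 36 in WT libraries. P300 folds in the same region were 8.57 and 8.88 in ΔcIDR, against 9.31 and 7.14 in WT libraries. YY1 was thus higher in both ΔcIDR libraries, and P300 overlapped between the genotypes. A second P300 stretch inside this region, chr13:66774330-66774661, was called only in the ΔcIDR libraries, with folds of 5.65 and 5.53.

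Further along lay 3 regions called in all 8 libraries within the densest bin of chromosome 13. At chr13:66828933-66829190, P300 folds were 15.0 and 10.6 in ΔcIDR libraries and 8.08 and 11.3 in WT libraries, and YY1 folds 8.71 and 13.2 in ΔcIDR libraries and 7.63 and 11.6 in WT libraries. Both antibodies overlapped between the genotypes there. At chr13:66845931-66846775, P300 folds were 6.56 and 8.22 in ΔcIDR libraries and 8.44 and 8.58 in WT libraries, and YY1 folds 8.96 and 10.8 in ΔcIDR libraries and 5.33 and 8.66 in WT libraries. Both P300 folds were lower, and both YY1 folds higher, in ΔcIDR than in WT, but the reads overlapped for both antibodies, with 19 and 23 in ΔcIDR, against 20 and 23 in WT, for P300 and 22 and 21 in ΔcIDR, against 14 and 23 in WT, for YY1.

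The third of them, chr13:66863687-66864392, was weaker, with P300 folds of 5.28 and 4.79 in ΔcIDR libraries and 4.20 and 4.50 in WT libraries, and YY1 folds of 6.98 and 8.15 in ΔcIDR libraries and 4.79 and 4.69 in WT libraries. Both antibodies had higher folds in both ΔcIDR libraries. The YY1 reads were also higher (24 and 22 in ΔcIDR, against 17 and 17 in WT). The YY1 summits lay at 66863890 and 66863947 in ΔcIDR libraries and at 66864189 and 66863981 in WT libraries, so that of WT replicate 1 was apart from the others. The P300 reads met, with 22 and 20 in ΔcIDR, against 18 and 20 in WT. Between it and the region before, chr13:66858740-66859540 was called in all 4 P300 libraries, with 6.40 and 5.53 in ΔcIDR, against 5.60 and 5.64 in WT libraries, and in 2 YY1 libraries. The remaining region called in all 8, chr13:66562815-66563234, had P300 folds of 5.86 and 6.47 in ΔcIDR libraries and 7.49 and 8.47 in WT libraries, and YY1 folds of 8.17 and 9.34 in ΔcIDR libraries and 9.26 and 6.61 in WT libraries. P300 was lower in both ΔcIDR libraries there, and YY1 overlapped.

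Over the 18 regions of the windows called in all 4 P300 libraries, the median P300 fold was 7.28 and 6.94 in ΔcIDR, against 7.21 and 7.51 in WT libraries, a log2 difference of −0.050 (p = 0.67, exact, two-sided). Both ΔcIDR folds lay above both WT folds at 2 of the 18, against a background of 15.3% of all P300 regions called in all 4 libraries, and below them at 7, against 26.4%. For YY1, both ΔcIDR folds lay above both WT folds at 8 of the 15 window regions called in all 4 YY1 libraries, against 48.1%, and below them at 1, against 3.13%. The share of window regions with both ΔcIDR YY1 folds on top was thus near that of all YY1 regions called in all 4 libraries, those of the windows included. The lowest local background of a library also differed by genotype. For YY1 it was 0.586 and 0.324 reads in ΔcIDR libraries, against 0.835 and 0.816 in WT libraries. For P300 it was 0.876 and 1.01 in ΔcIDR libraries, against 0.776 and 0.773 in WT libraries. A lower background raises a fold at a given number of reads, and its part in these orders was not tested.

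Among the regions called in 1 genotype only, the P300 class with both ΔcIDR libraries was led, beside the stretch at chr13:66774330-66774661, by chr13:66874802-66875060 with folds of 6.34 and 5.29, and by chr13:66971632-66971817 with 5.86 and 6.17. Its WT counterpart was led by chr4:147467844-147468206 with 5.63 and 7.90, chr4:147878088-147878258 with 6.61 and 4.76, and chr13:65829367-65829510 with 6.19 and 5.64. None of the 3 WT-only regions had a YY1 peak.

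YY1 regions called only in ΔcIDR were led by chr13:65562927-65563143, with folds of 9.96 and 10.8. P300 was called there in both ΔcIDR libraries and in WT replicate 2, with folds of 7.46, 7.47 and 7.33. The split of the YY1 calls by genotype placed this region in the class, so the contrast with P300 is no separate result. Others were chr4:147893697-147894357, with 4.92 and 8.60, and chr13:66130858-66131088, with 5.43 and 6.80. The only 2 YY1 regions called in WT alone were chr4:147474388-147474728, with 5.25 and 4.97, and chr13:66152306-66152965, with 4.90 and 6.38. All of these rested on 8 to 18 reads per library, and the absence of a call does not show that the protein was absent.

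In the windows a larger share of YY1 regions lay on P300 regions than elsewhere. Of the 105 YY1 regions, 62 (59.0%, 49.5 to 68.0) overlapped a P300 region, against 11.5% (6.96 to 18.3) of YY1 regions in the flanks and 7.47% (7.12 to 7.84) in the rest of the genome. P300 regions covered 1.16% of the bases of the windows and 0.140% of those of the flanks, so the windows also offered YY1 more P300 regions to meet. The windows were picked for P300, and no test was applied.

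The same held in each YY1 library. In ΔcIDR libraries 67.2% and 58.5% of the YY1 peaks in the windows lay on a P300 region, against 17.3% and 10.8% in the flanks and 8.52% and 7.57% in the rest. In WT libraries it was 73.5% and 65.0% in the windows, against 26.3% and 12.1% in the flanks and 12.6% and 11.5% in the rest. The order of windows, flanks and rest was the same in all 4 YY1 libraries.

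Seen from P300, the overlap was not higher in the windows. Of their 218 P300 regions, 67 (30.7%, 25.0 to 37.1) overlapped a YY1 region, against 23.7% in the flanks and 36.4% (34.9 to 37.8) in the rest. The overlap grew with the number of P300 libraries that called a region, and was 19.7% for 1 library, 38.5% for 2 or 3 and 72.2% (13 of 18) for all 4, against 32.3%, 43.8% and 63.1% in the rest of the genome. The windows were thus below the rest for P300 regions of a single library, with intervals of 13.6 to 27.6% in the windows and 30.7 to 33.9% in the rest. These intervals treat regions as independent, though many are close neighbours, and no test was applied. The overlap also depends on list length. With lists of equal length 19.6% of all P300 regions in the windows overlapped YY1, and the rest of the genome was not recomputed.

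That left 5 regions called in all 4 P300 libraries without YY1. Beside the 3 on chromosome 4 given above, they were chr13:65639600-65639794, with folds of 6.40 and 7.96 in ΔcIDR libraries and 8.82 and 5.64 in WT libraries, and chr13:65747310-65747570, with 5.33 and 4.98 in ΔcIDR libraries and 6.19 and 5.64 in WT libraries. The reverse, all 4 YY1 libraries without P300, was found at 2 regions. One was chr13:66802322-66802735, with YY1 folds of 8.83 and 11.1 in ΔcIDR libraries and 6.54 and 11.0 in WT libraries, and the other was chr4:147988756-147989391, with 4.67 and 6.57 in ΔcIDR libraries and 5.08 and 4.43 in WT libraries. These 4 regions were named after their values were seen.

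**Figure D3:**
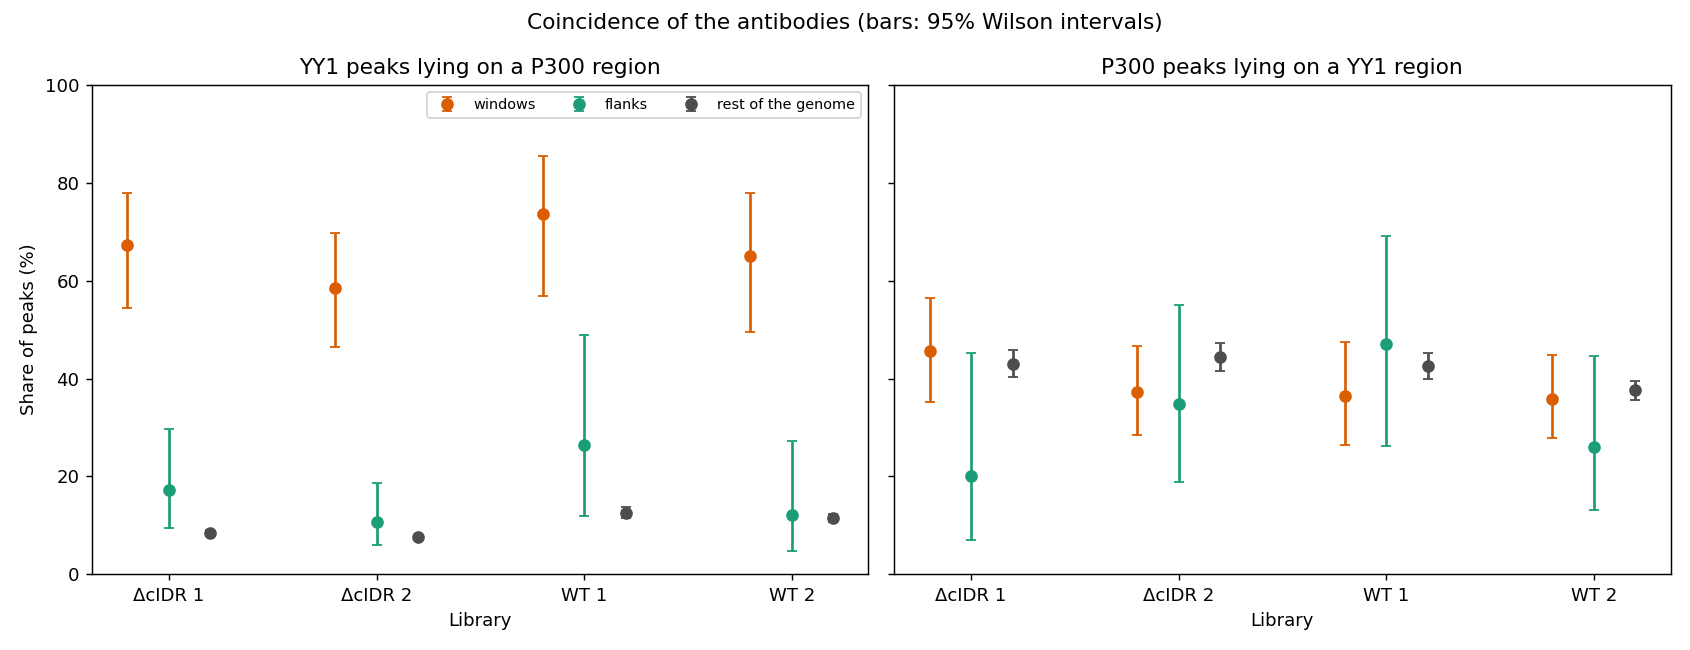
Share of the peaks of each library that lay on a region of the other antibody (percent, points, with 95% Wilson intervals as bars), in the windows, the flanks and the rest of the genome. For YY1 peaks on P300 regions (left) the windows lie above 58% in all 4 libraries and the rest of the genome below 13%, while for P300 peaks on YY1 regions (right) the intervals overlap.

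At the 61 regions that held both antibodies, summits lay close together. The median distance between a P300 summit and a YY1 summit of the same region was 46 bp over 338 pairs, against 31 bp between P300 summits of different libraries over 143 pairs and 42 bp between YY1 summits over 120 pairs. P300 and YY1 summits were within 50 bp of each other in 53.3% of the pairs, and P300 summits of different libraries in 58.0%. These regions were picked because peaks of the antibodies overlapped, and the peaks are narrow. Short distances between their summits therefore follow in part from that choice. Pairs from the same region are not independent, and no test was applied.

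YY1 peaks that lay on a P300 region ranked higher in their lists. Their median percentile of −log10 q was 62.3 and 71.7 in ΔcIDR libraries, against 37.7 and 63.0 for the other YY1 peaks of the windows, and in WT libraries it was 58.4 and 57.3 against 37.4 and 56.9. The gap was wide in replicate 1 of each genotype and narrow in WT replicate 2. Over all window peaks, the median percentile was 65.4 and 61.7 in ΔcIDR libraries and 64.1 and 69.6 in WT libraries for P300, and 53.8 and 70.4 in ΔcIDR libraries and 53.9 and 56.9 in WT libraries for YY1, and the genotypes overlapped (p = 0.67 for P300 and p = 1 for YY1, exact, two-sided). For YY1 the difference in percentile, 6.73 over the full lists, was 11.7 on chromosome 4 alone, with the genotypes apart (p = 0.33, exact, two-sided). It was −1.46 on chromosome 13 alone and −1.60 without ΔcIDR replicate 2. Shortened lists kept the percentiles of the full lists, so the longer ΔcIDR lists kept only high percentiles. The differences of 29.9 with lists of equal length and 14.6 with −log10 q of at least 5 were thus set in part by list length. They do not measure a difference in rank. P300 peaks in the windows therefore ranked above the middle of their lists in all 4 libraries.

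Merged P300 regions followed each other at a median summit distance of 6306 bp on chromosome 4 and 6681 bp on chromosome 13, against 22788 bp in the flanks and 205030 bp in the rest of the genome. Another P300 region lay within 1000 bp for 41.5% of the regions on chromosome 4 and 32.6% of those on chromosome 13, against 15.3% in both the flanks and the rest. For YY1 the figures were 23.2% on chromosome 4 and 8.16% on chromosome 13, against 18.0% in the flanks and 21.4% in the rest. The median distance between YY1 regions was 15653 bp on chromosome 4 and 23021 bp on chromosome 13, against 32695 bp in the flanks and 41655 bp in the rest. YY1 regions were thus also closer together in the windows by their median, without the raised share of neighbours within 1000 bp that P300 had in both windows.

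The closest neighbours on chromosome 4 were chr4:146003671-146003807 and chr4:146003872-146003996, with 64 bp between them. On chromosome 13 they were chr13:66863687-66864085 and chr13:66864132-66864327, with 46 bp between them, and both belong to the region called in all 8 libraries given above. The packing was broken by a few wide gaps. On chromosome 4, 173121 bp without a P300 region preceded 146803218 and 151745 bp preceded 146979022, and on chromosome 13 there were gaps of 112619 bp before 66292609 and 101449 bp before 66551503. Each window had 2 gaps of more than 100 kb between P300 regions, apart from the start of the chromosome 13 window, where no P300 region lay before 65499399.

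Within single libraries, the median distance between neighbouring P300 summits in the windows was 17361 and 11352 bp in ΔcIDR libraries and 16817 and 15489 bp in WT libraries. The genotypes overlapped (log2 difference −0.20, p = 1, exact, two-sided), and without ΔcIDR replicate 2, the library with the closest spacing, the difference was 0.11. With lists of equal length it was −0.62, with the genotypes apart (p = 0.33, exact, two-sided), and with −log10 q of at least 5 it was −0.46. Spacing within a window of fixed length depends in part on the number of P300 peaks, by which the windows were chosen. These tests therefore cannot show whether the genotypes are alike in spacing.

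A repeat of fixed length would show as an excess of summit pairs at 1 distance. Among merged P300 regions there were 974 pairs up to 100 kb apart on chromosome 4, a mean of 4.87 per 500 bp bin, and the fullest bin, 500 to 1000 bp, held 17 of them (1.75%). On chromosome 13 there were 682 pairs, a mean of 3.41 per bin, and the fullest bin, 0 to 500 bp, held 11 (1.61%). In both windows the fullest bin was therefore at short range, and no longer distance held more pairs.

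Single libraries gave no common distance. On chromosome 4 the fullest bins began at 2000 bp and 1500 bp in ΔcIDR libraries and at 22000 bp and 500 bp in WT libraries, each with 5 pairs, and bins with equal numbers were found in ΔcIDR replicate 2 and WT replicate 2. No fullest bin was shared by all 4 P300 libraries in either window, and at most 2 libraries shared one on chromosome 13. An exactly equal distance between the starts of P300 peaks was never seen more than 2 times within a library, and in 5 of the 8 combinations of library and window no distance was seen more than once. With peaks of −log10 q of at least 5 only, the fullest bins moved to 7500 to 8000 bp on chromosome 4, with 6 pairs, and 11000 to 11500 bp on chromosome 13, with 5. A fixed period was not detectable at these numbers of pairs.

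**Figure D4:**
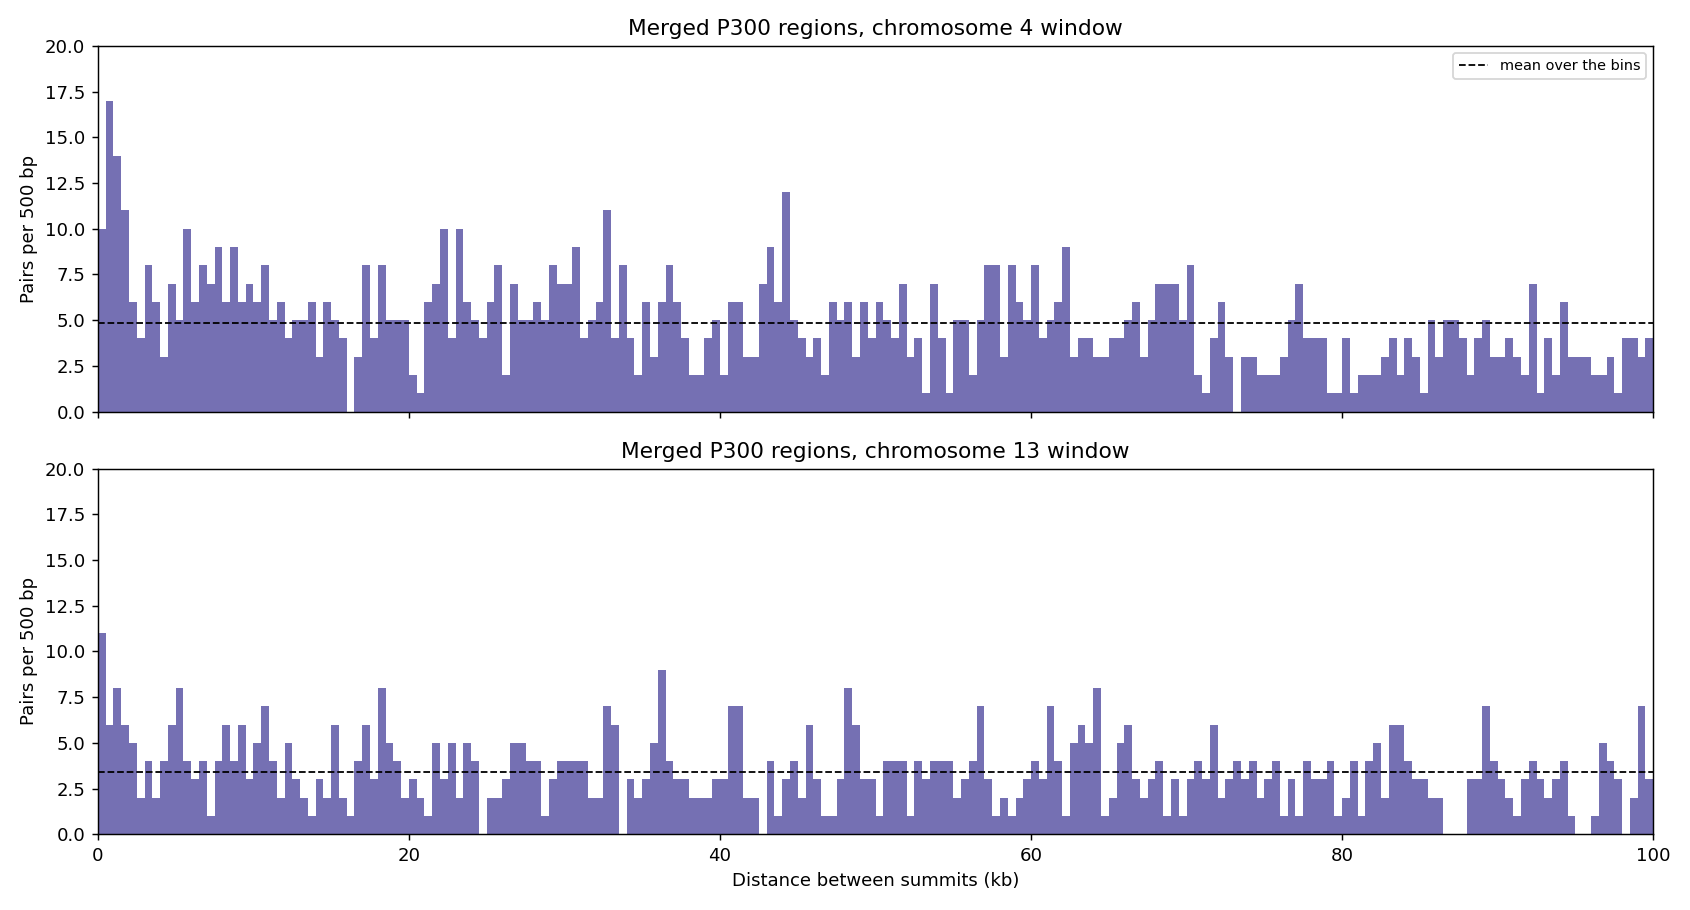
Number of pairs of merged P300 summits per 500 bp of distance, up to 100 kb, in the chromosome 4 window (top) and the chromosome 13 window (bottom), with the mean over the bins as a dashed line. The fullest bins, with 17 and 11 pairs, are at the left end, and no longer distance holds more pairs.

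Read numbers behind the calls were low. The whole reads at each summit and the local background, worked out from the fold and −log10 p that the authors deposited, could be recovered for all 580 peaks of the windows. For P300 the median was 16 and 16 reads in ΔcIDR libraries and 14.5 and 14 in WT libraries on chromosome 4, and 12 and 14 in ΔcIDR libraries and 11 and 10.5 in WT libraries on chromosome 13, against 12 and 13 in ΔcIDR libraries and 12 and 11 in WT libraries in the rest of the genome. For YY1 it was 12 and 11 in ΔcIDR libraries and 13 and 12.5 in WT libraries on chromosome 4, and 9 and 7 in ΔcIDR libraries and 12 and 12.5 in WT libraries on chromosome 13. Summits on chromosome 13 thus had fewer reads than those on chromosome 4 in every P300 library.

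The local background differed between the windows. Its median at P300 peaks was 1.00 and 1.06 reads in ΔcIDR libraries and 0.980 and 0.773 in WT libraries on chromosome 13, and 1.73 and 2.23 in ΔcIDR libraries and 1.69 and 1.76 in WT libraries on chromosome 4, against 1.55 and 1.72 in ΔcIDR libraries and 1.47 and 1.48 in WT libraries in the rest of the genome. It was thus lower than the rest on chromosome 13 and higher than the rest on chromosome 4. Peaks whose background lay within 2% of the lowest value of their library made up 41.9% and 45.5% of P300 peaks in ΔcIDR libraries and 27.6% and 58.0% in WT libraries on chromosome 13, against 9.99% and 15.5% in ΔcIDR libraries and 7.72% and 10.4% in WT libraries in the rest of the genome. For YY1 peaks on chromosome 13 they were 50% and 47.1% in ΔcIDR libraries and 41.2% and 44.4% in WT libraries, against 9.95% and 9.23% in ΔcIDR and 13.5% and 11.3% in WT in the rest. In all 8 libraries the chromosome 13 window therefore had more such peaks than the rest of the genome.

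On chromosome 4 these shares were 16.0% and 23.0% in ΔcIDR libraries and 18.8% and 25.7% in WT libraries for P300, and 10.0% and 16.1% in ΔcIDR libraries and 17.6% and 31.8% in WT libraries for YY1. They lay between those of chromosome 13 and of the rest of the genome for both antibodies, by less than 1 percentage point above the rest in YY1 ΔcIDR replicate 1. A low local background raises a fold at a given number of reads, and its part in the crowding of P300 calls was not tested.

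**Figure D5:**
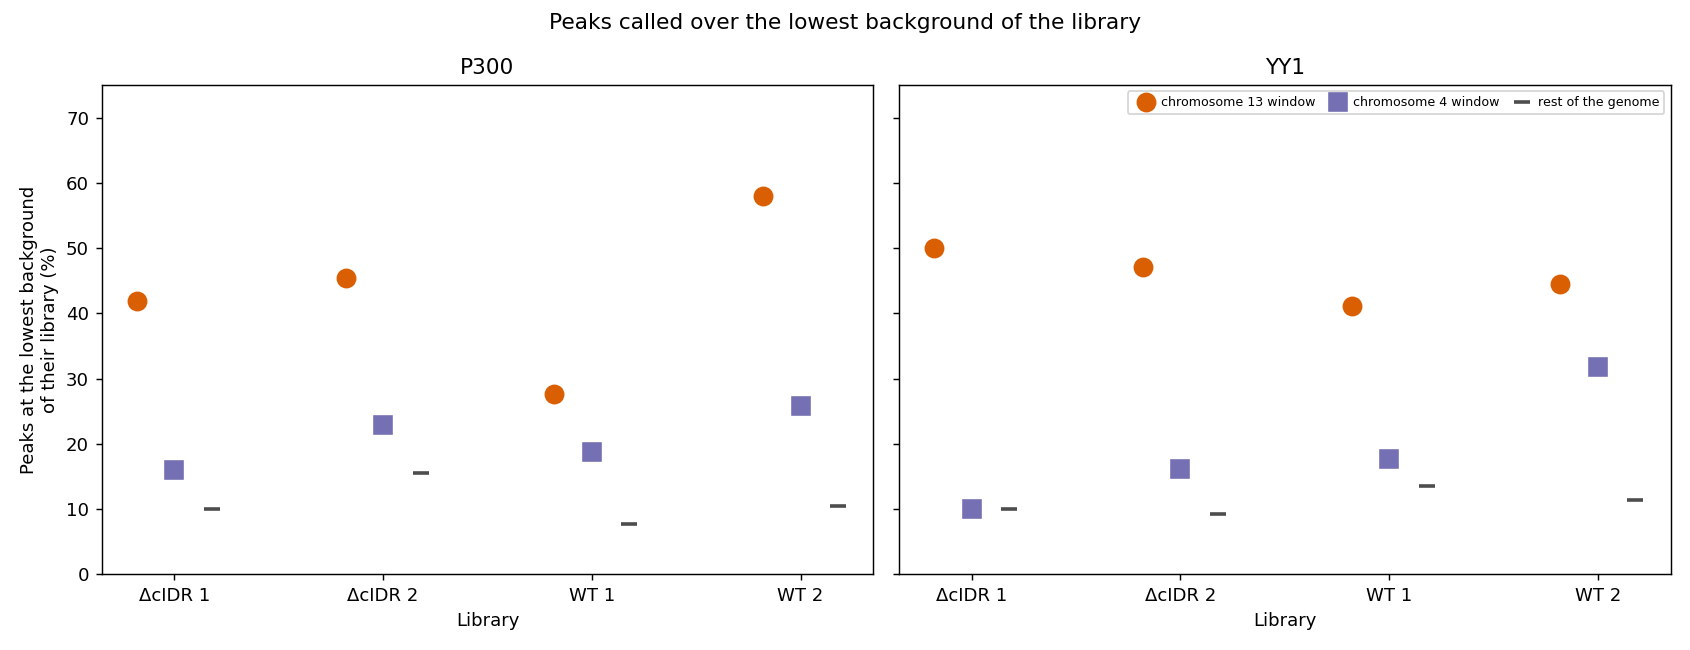
Share of peaks (percent) whose local background lay within 2% of the lowest value of their library, for the chromosome 13 window (circles), the chromosome 4 window (squares) and the rest of the genome (dashes), by library. Circles lie between 27.6% and 58.0%, above the dashes in all 8 libraries.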

How the data were processed

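CUT&RUN libraries for P300 and YY1 were analysed as 1 deposited peak list each, 2 per antibody and genotype, grouped by the labels. The lists are in MACS2 narrowPeak layout; per the submitters' processing notes the tools were MACS2, BWA, Picard, SAMtools, featureCounts and fastp, without roles, and the build was GRCm39. The use of a control library and the treatment of reads with several matching places are not given in the sources used here. The authors deposited for each peak a whole-number score, a fold at the summit over a local background, −log10 p and −log10 q, used here to describe and rank the peaks of each list. Read totals are not part of the peak lists, so depth is unknown. Lists held 1304 to 15531 peaks, and list length is not taken as a measure of depth. The lowest local background of a library ranged from 0.324 to 1.01 reads and was lowest in the longest YY1 list. Its relation to depth was not tested.

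Autosomal, X and Y peaks were used, with Python 3.11.15, pandas 2.3.3, NumPy 2.4.6 and SciPy 1.17.1, and overlap meant at least 1 bp. Percentiles are ranks of −log10 q within a list, and lists of unequal length limit what they compare. Whole reads were solved from fold and −log10 p, with 1 added to reads and to background in the fold and a Poisson tail for p, and fitted 98.2% to 99.9% of the peaks of a library within a relative 0.0001. Wilson 95% intervals cover counting error only. Scripts were tested on simulated data.

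Values per library were compared on the log2 scale, ΔcIDR minus WT, by two-sided exact permutation tests that cannot pass 0.05. The labels do not say that replicates came from separate cultures, so each p reflects the spread between these libraries alone, which may be technical. The windows, regions and measures were chosen with earlier results of these data known. Named were, per window, the 5 best-ranked regions in all 4 P300 libraries, up to 5 regions in all 8, up to 3 per antibody and genotype class, and the widest gap and closest pair of P300 regions; counts of regions with folds of the genotypes apart were added after seeing the data. Without a GRCm39 genome or annotation, genes, promoters and the sequences of the regions are not analysed here.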

Additional observations from a re-analysis of the deposited data

How the results depend on the processing

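Of 193 values recomputed under other settings, 18 turned direction and 25 without a test moved. Of the 113 with a test, 95 kept their direction but not always their size, and the lowest exact p was 0.11. Some of these 95 could not have turned. A replicate block changes only the p and not the difference. Placing peaks by their summit changed nothing, because no peak crossed an edge of a window or flank. The 95 therefore do not measure how steady the results are. With lists of equal length the log2 difference was 0.19 for P300 peak number, −0.43 for YY1 peak number, −0.40 for the P300 ratio of windows to flanks and 0.0023 for the P300 fold at shared regions, and the antibody difference was 0.62 (p = 0.11, exact). That antibody difference keeps the limit that its P300 counts chose the windows. With −log10 q of at least 5 the P300 ratio was −0.23 and the fold difference 0.11. Chromosome 4 alone gave −0.13 for the ratio and 0.10 for the fold difference. Chromosome 13 alone gave differences of 0.805 and −1.46 in the percentiles of P300 and YY1 and 0.021 in P300 spacing. Its P300 ratio could not be computed, since ΔcIDR replicate 1 had no P300 peak in those flanks.

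Leaving out each library in turn gave −0.38 to 0.26 for P300 peak number, 0.27 to 0.68 for P300 share, −0.96 to −0.36 for YY1 share, −1.08 to −0.40 for the YY1 ratio of windows to flanks, −1.60 to 15.0 for the YY1 percentile difference, −0.51 to 0.11 for P300 spacing and −0.032 to 0.060 for the P300 fold difference. Regions called only in ΔcIDR then numbered 11 to 36 for P300 and 11 to 32 for YY1, those only in WT 14 to 50 for P300 and 3 to 10 for YY1, and YY1 regions in all remaining libraries 16 to 23, since fewer libraries have to agree. With −log10 q of at least 5, 10 P300 and 8 YY1 regions were called in all 4 libraries, 2 P300 regions only in WT, 2 YY1 regions only in ΔcIDR and 0 only in WT, and 22.4% of P300 regions overlapped YY1. With equal lengths 1 YY1 region was called only in ΔcIDR and 19.6% of P300 regions overlapped YY1. An overlap of at least 50% of the shorter interval left 1 YY1 region only in WT, and bins of 250 bp put 1.03% of pairs in the fullest bin of chromosome 4. The cause of these shifts was not tested.

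The labels do not say whether equal replicate numbers pair libraries. At regions called in all 4 libraries, fold deviations of equal numbers correlated at −0.07 for P300 and 0.03 for YY1, which does not settle it. The pair sharing the largest part of its window regions was ΔcIDR replicate 2 and WT replicate 2 for both antibodies. These were also the libraries with most window regions in their genotype, so this does not settle it either. With a replicate block the YY1 log2 difference in peak number stayed 0.74 (p = 0.5, exact). No test could pass 0.05 with or without the block. Counts between libraries are limited by list length, by low read numbers and by 2 libraries per genotype.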
